A study of Mus musculus with 134 samples.

Results

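High-gene cells are the single mouse embryonic stem (ES) cells in which 5000 or more genes had at least 1 count in the expression library of scSET-seq, an assay that reads cytoplasmic RNA and 1 histone mark from the same cell. They were 66 of 752 cells (8.78%), and the gene number of each cell was the only value that chose them. Passing cells had more than 1000 and fewer than 5000 genes, the range kept by the study (545 cells), and 141 cells had 1000 genes or fewer. High-gene cells came from 6 of 16 experiments, which also held 142 passing cells. H3K4me3 experiment 6 had 42 high-gene and 22 passing cells, H3K27me3 experiment 1 had 9 and 7, H3K27me3 experiment 2 had 8 and 8, H3K27me3 experiment 6 had 3 and 45, H3K27me3 experiment 3 had 2 and 14, and H3K4me3 experiment 5 had 2 and 46. In the 10 experiments without a high-gene cell, the highest gene number was 4125.

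All groups were the wild-type ES line ES-E14TG2a, which is of 129/Ola origin, grown with serum and leukemia inhibitory factor. The single cells had been cultured for 12 h with beads carrying Wnt3a, so that a dividing cell left a proximal daughter at the bead and a distal daughter away from it, and were then picked 1 to a well by mouth pipette, so no doublet caller was run. The comparison libraries were 20 bulk SET-seq expression libraries of pools of cells without beads, 8 without an antibody and 12 with an antibody to H3K4me3 or H3K27me3. Bulk and single-cell libraries therefore differed in the beads, in the number of cells and in how reads were counted (exons in bulk, exons and introns in single cells), and these differences cannot be told apart. Nothing in the labels ties an experiment to a separate culture, so p-values measure only the spread between these experiments and libraries.

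ES cells hold their undifferentiated state through a small circuit of transcription factors that includes Nanog and Oct4, the product of Pou5f1, and Zfp42 (Rex1) is a classic marker of that state. Wnt signalling stabilizes beta-catenin and switches on feedback genes such as Axin2, Sp5, Nkd1 and Notum. In a single-cell RNA assay, the number of genes seen in a cell depends on its RNA, on how completely the RNA was copied, on sequencing depth and on molecules that carry the wrong cell barcode.

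Each cell is known by a well barcode of 16 bases, a row index of 8 bases followed by a column index of 8 bases, and the same 8 row indices were used in all 16 experiments, with different columns in use. The indices below are those of the rows and columns in which high-gene cells were most and least frequent, because their place on the plate is described further on. They run 5′ to 3′ as read in the barcode.
Row A: tatagcct
Row G: caggacgt
Column 1: cgagtaat
Column 2: tctccgga
Column 8: gcgcatta
Well A1 held a high-gene cell in 6 of 6 experiments, well A2 in 5 of 6 and well C2 in 4 of 6. The 66 cells used 43 distinct barcodes of 96 in use, each of their barcodes also occurred in another experiment, and any pair of the 6 experiments shared between 16 and 48 barcodes.

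The gene numbers of high-gene cells were spread widely in 1 experiment and narrowly in the others. In H3K4me3 experiment 6 they ran from 5142 to 10426 with a median of 6440, and all 17 cells with 7000 or more genes were from it. The medians were 5294 in H3K27me3 experiment 1, 5854 in experiment 2, 5195 in experiment 3 and 5357 in experiment 6, and 5350 in H3K4me3 experiment 5. The cells just outside the limit had 4955, 4970 and 4999 genes and those just inside had 5003, 5008 and 5010, from H3K27me3 experiments 1, 6 and 2 on both sides. A limit of 4500 genes would have taken 94 cells and a limit of 5500 genes 49.

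High-gene cells carried more counts than the passing cells of their own experiment, by medians, in 6 of 6 experiments. The median total of H3K4me3 experiment 6 was 389551.5 counts against 107313 in passing cells, and in H3K4me3 experiment 5 it was 356276.5 against 86133. In H3K27me3 experiments 1, 2, 3 and 6 it was 1953575 against 1533609, 2135951.5 against 1260969.5, 1844523 against 776945.5, and 644016 against 463048. The plot of genes against counts shows that the high-gene cells of H3K4me3 experiment 6 reached their gene numbers with fewer counts than those of H3K27me3 experiments 1 to 3. These files hold reads, not molecules, because no molecular identifiers were used, and all counting intervals and floors below cover counting error only.

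**Figure D1:**
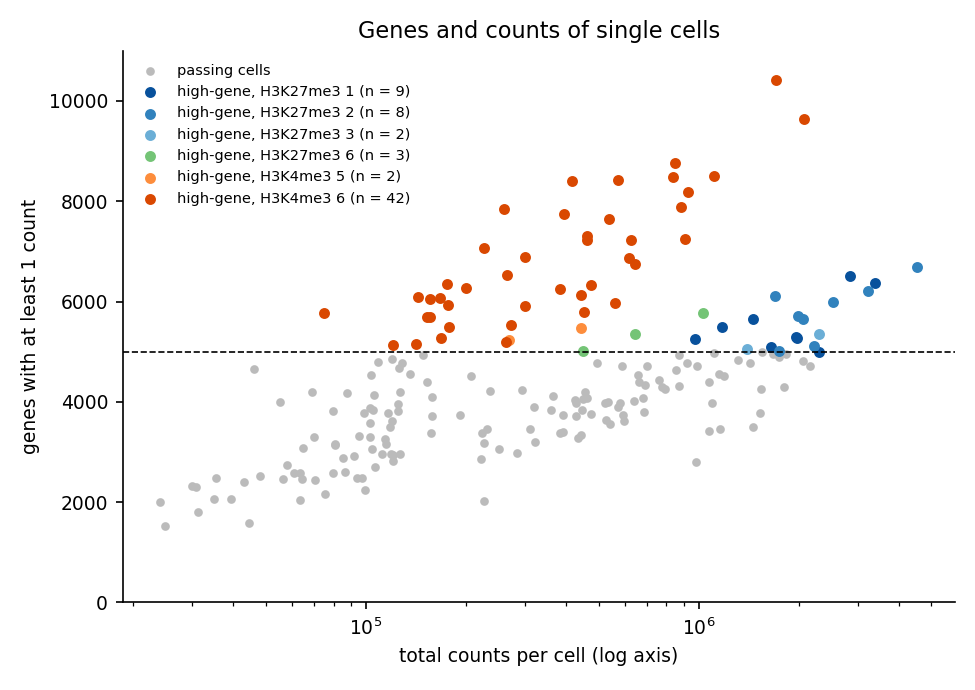
Genes with at least 1 count (vertical axis, linear) against total counts (horizontal axis, log) for the 66 high-gene cells, coloured by experiment, and the 142 passing cells of the same 6 experiments in grey; the dashed line is the limit of 5000 genes. Cells of H3K4me3 experiment 6 reach 10426 genes, whereas cells of H3K27me3 experiments 1 and 2 with more counts stay below 7000.

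The order of the groups was the same at equal depth. After each cell was thinned at random to 50000 counts without Rn45s, the ribosomal RNA precursor, the median gene number of high-gene cells was still above that of passing cells in 6 of 6 experiments, at 4061.5 against 3251 in H3K4me3 experiment 6, 3116 against 2437 in H3K4me3 experiment 5, and 1980 against 1810, 2051.5 against 1806, 2092 against 1404 and 2121 against 1882 in H3K27me3 experiments 1, 2, 3 and 6. Gene number is what the rule used, so these differences are descriptions with no test. The 20 bulk libraries at the same 50000 counts showed 4798 to 8045 genes, with a median of 7411. Thinned high-gene cells of the H3K27me3 experiments thus held fewer genes than any bulk library, and the most gene-rich thinned cells of H3K4me3 experiment 6 (5355 genes in well E4 and 5256 in well A1) lay inside the bulk range. Over the 42 high-gene cells of H3K4me3 experiment 6, Pearson's r of log2 genes with log2 total counts was 0.803, and after thinning r of log2 genes with log2 total was 0.127, both given as descriptions of cells that shared 1 library.

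At full depth, the extra genes were not only genes with a single count. High-gene cells had more counts by medians in 6 of 6 experiments, and the part of depth in the values below was not tested. The median share of genes that had exactly 1 count was lower in high-gene than in passing cells in 5 of 6 experiments, for example 25.8% against 36.0% in H3K4me3 experiment 6 and 21.2% against 24.5% in H3K27me3 experiment 1, and it was higher in H3K27me3 experiment 6 (34.2% against 31.9%). Genes with 10 or more counts numbered 2343.5 against 926 in H3K4me3 experiment 6 and 2170 against 1856 in H3K27me3 experiment 1. In bulk libraries the share of genes with 1 count was 1.46% to 14.6%.

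Where a cell sat on the plate went with its gene number. Of the cells in row A of the 6 experiments, 18 of 26 were high-gene cells (69.2%), and of those in row G, 3 of 26 (11.5%). All 8 cells of row A of H3K4me3 experiment 6 were high-gene cells with a median of 8135 genes and 1 of 8 in row G was, at a median of 3887.5 genes. Along the columns of that plate, column 1 held 8 of 8 with a median of 8309.5 genes and column 8 held 1 of 8 with a median of 4149.5 genes. A row and a column term together took up 0.98 of the variance of log2 gene number there (R2), 0.979 in H3K4me3 experiment 5, 0.933 in H3K27me3 experiment 6 and 0.723 in H3K27me3 experiment 1, or 0.974, 0.972, 0.911 and 0.406 after adjustment for the number of terms. After thinning to 50000 counts, R2 in H3K4me3 experiment 6 was 0.781 over the 63 cells deep enough, with medians of 4508.5 genes in row A and 3661 in the other rows. The map of genes by well shows the same row and column bands in the 3 largest plates.

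**Figure D2:**
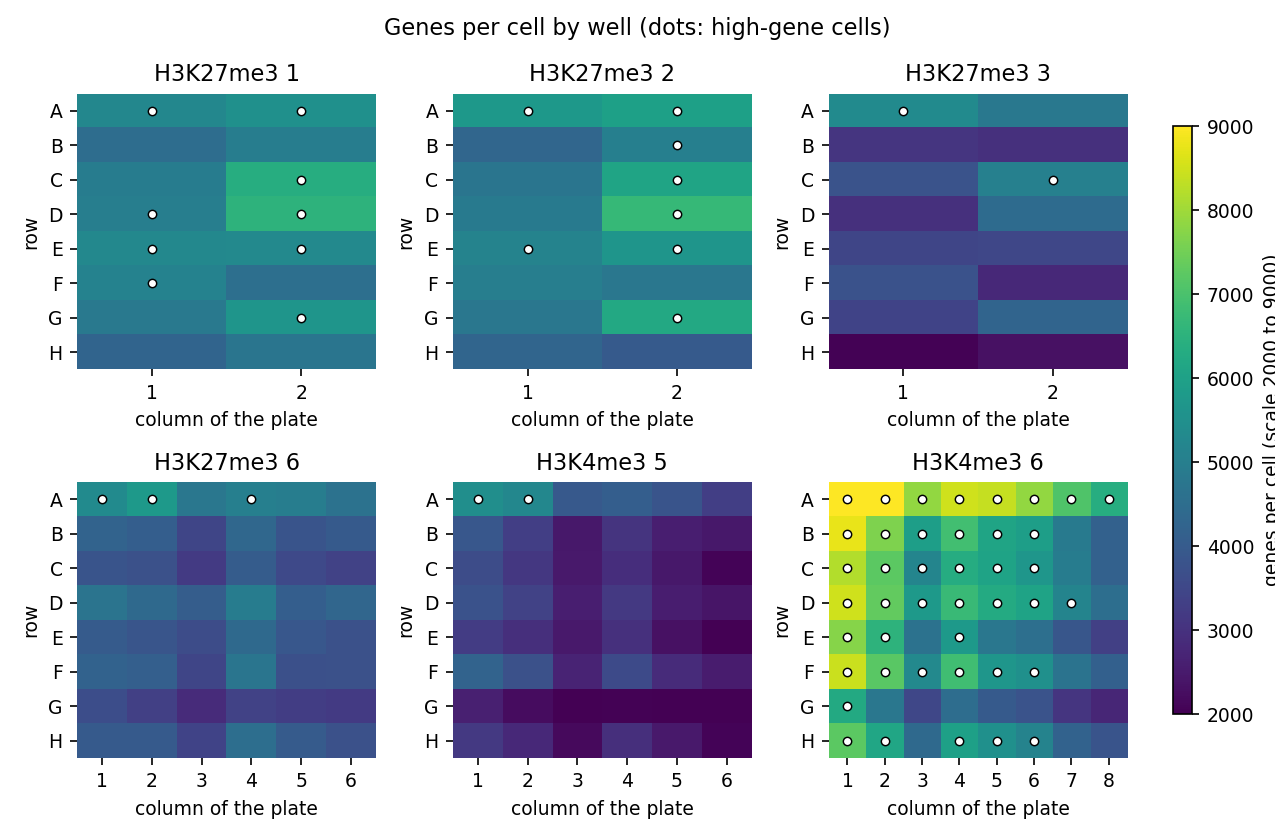
Genes with at least 1 count in each well of the 6 experiments with high-gene cells, with rows A to H downward and the plate columns in use across; white dots mark high-gene cells, and the colour scale ends at 2000 and 9000 genes. In H3K4me3 experiment 6 row A and column 1 hold high-gene cells in every well, and row G holds 1.

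The same measure was then tested in the 10 experiments that had no high-gene cell and so took no part in the rule. The median log2 gene number of row A minus that of rows B to H was positive in 10 of 10, from 0.487 to 1.02, with a mean of 0.716 ± 0.187 (SD, n = 10). An exact sign-flip permutation test over experiments, two-sided, gave p = 0.00195, the smallest that 10 experiments allow, and an adjusted p of 0.00391 over this and the column test. Columns 1 and 2 against the other columns could be compared in 4 of these experiments, and the difference was positive in 2, with a mean of 0.352 ± 0.617 (SD, n = 4) and an exact sign-flip permutation p of 0.5 (adjusted p = 0.5, smallest possible 0.125). The preference for row A was thus larger than the spread between experiments, and a preference for columns 1 and 2 was not detectable with 4 experiments. Row A had the highest median of all rows in 14 of 16 experiments, 5 of them among the 6 with high-gene cells, and row G had the lowest in 13 of 16. What differed between rows (the cells picked, the index, the pipetting order) was not tested.

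**Figure D3:**
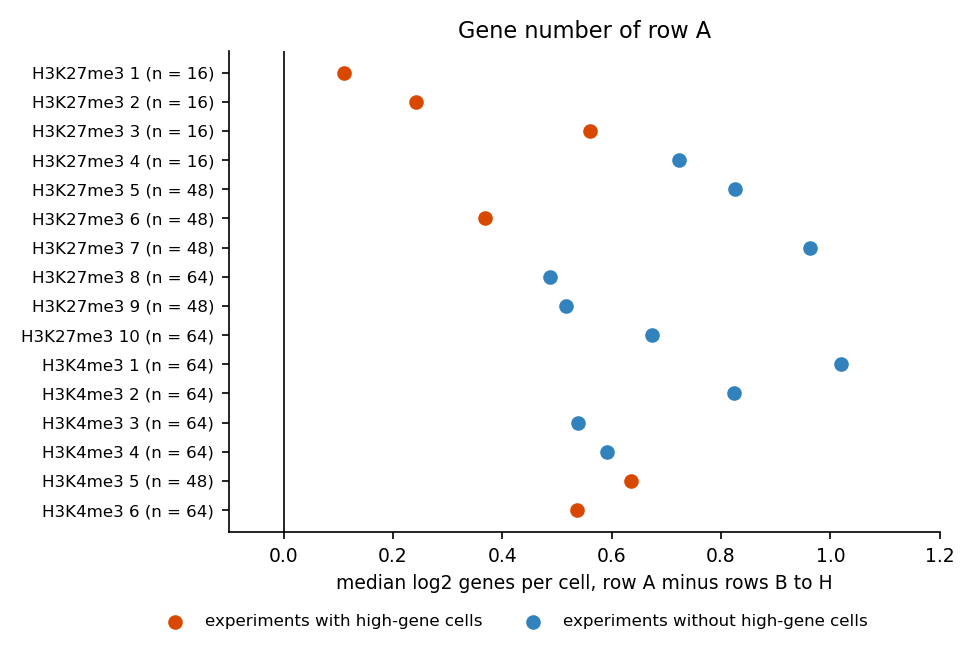
Difference in median log2 genes per cell between row A and rows B to H (horizontal axis) for each of the 16 experiments, with the number of cells. All points lie above 0; the 10 experiments without high-gene cells, in blue, run from 0.487 to 1.02.

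Genes abundant in a cell that shared a high-gene cell's row or column index had a count in it more often than genes abundant only in cells sharing neither. For every cell, the genes at fewer than 100 counts in it and at 100 or more in another cell of its experiment were split by where those strong cells lay, a measure chosen after the plate pattern was seen. In H3K4me3 experiment 6 the median high-gene cell had a count for 51.0% of genes that were strong only in cells of its row, 54.3% of those strong only in cells of its column, 40.0% of those strong only in cells sharing neither, and 12.3% of genes strong nowhere. In H3K27me3 experiment 1 these shares were 61.6%, 50.7%, 35% and 21.0%. The share for the row exceeded that for neither in 59 of 66 high-gene cells, and the share for the column in 65 of 66. The passing cells showed the same order in 137 of 142 for the row and 137 of 142 for the column, with lower shares, such as 34.6%, 38.2%, 24.8% and 7.48% in H3K4me3 experiment 6. Genes strong in more cells are also easier to detect, and the part of either in the gene number was not tested.

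The marker genes of ES cells were present in high-gene cells, unevenly. Nanog had a count in 64 of 66 cells and 10 or more in 51 (77.3%, against 30.3% of passing cells), Zfp42 in 66 and 54 (81.8% against 28.2%), and Pou5f1 in 54 and 25 (37.9% against 5.63%). In cells thinned to 50000 counts, which left out 14 passing cells, Nanog had a count in 81.8% of high-gene and 51.6% of passing cells, Zfp42 in 81.8% and 61.7%, and Pou5f1 in 56.1% and 21.9%. Within H3K4me3 experiment 6 alone the thinned shares were 97.6% and 85.7% for Nanog, 97.6% and 90.5% for Zfp42, and 76.2% and 47.6% for Pou5f1. Of the 21 measured genes in the pluripotency list, the median high-gene cell showed 15 after thinning and the median passing cell 7, or 16 against 13 within H3K4me3 experiment 6, and thinned bulk libraries showed 19.

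Summed over the high-gene cells of each experiment, the marker levels lay mostly at or under the bulk range, in CPM (counts of the gene per 1000000 counts of the sum). In the order H3K27me3 experiments 1, 2, 3 and 6 and H3K4me3 experiments 5 and 6, Nanog was at 202, 148, 55.3, 254, 495 and 387 CPM, with 204 to 1180 (median 888) in the bulk libraries. Zfp42 was at 238, 486, 90.3, 362, 187 and 317 CPM, with 380 to 641 in bulk, and Pou5f1 was at 0.904, 80.9, 0, 2.36, 112 and 105 CPM, with 111 to 302 in bulk. In H3K27me3 experiment 2, the cell in well D2 held 1559 counts of Pou5f1, that in well A2 held 51 and the others at most 3. Of the Nanog sums, 3 lay below every bulk library, as did 5 of the Zfp42 sums and 5 of the Pou5f1 sums, and H3K27me3 experiments 1, 3 and 6 were nearly empty of Pou5f1. The passing sums of the same experiments were at 305, 3.46, 393, 150, 262 and 257 CPM for Nanog and at 0, 0.481, 151, 0.837, 63.8 and 73.5 for Pou5f1. The high-gene sum was above the passing sum in 4 of 6 experiments for Nanog, 4 for Zfp42 and 5 for Pou5f1.

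**Figure D4:**
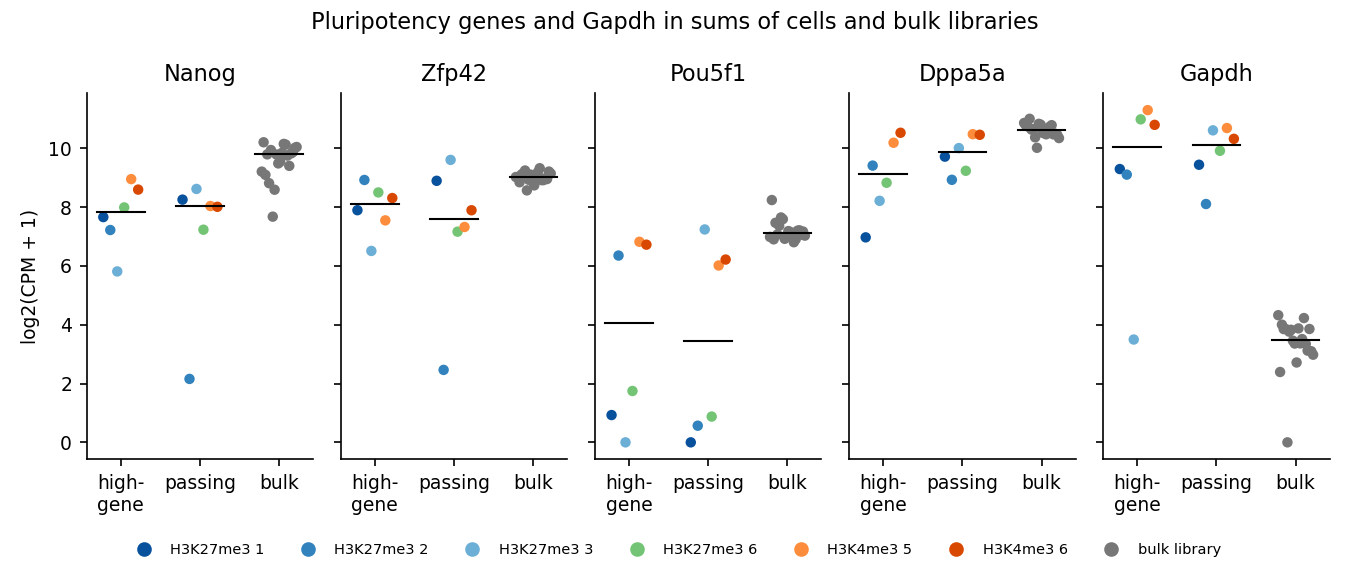
log2(CPM + 1) of 4 ES cell genes and Gapdh in the sums of high-gene cells and of passing cells (6 experiments, coloured) and in 20 bulk libraries (grey); horizontal lines are medians. In the high-gene sums the ES cell genes lie within or below the bulk range and spread between experiments, and Gapdh lies above every bulk library in 5 of 6 high-gene sums.

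No list of another cell type lay above the bulk range in all 6 sums. The summed pluripotency list took 0.105% to 0.478% of counts in the high-gene sums, 0.0685% to 0.555% in the passing sums and 0.591% to 0.833% in bulk. The 11 primitive endoderm genes took 0.000723% to 0.0322% (bulk 0.0142% to 0.0328%) with 1 member at 0 in every cell, the 11 trophoblast genes 4.72e-05% to 0.0131% (bulk 0.000425% to 0.012%) with 2 at 0, the 10 fibroblast genes 0.0101% to 0.0572% (bulk 0.00638% to 0.0466%) with none at 0, the 8 neural and mesodermal genes 0.000755% to 0.0667% (bulk 0.000425% to 0.0139%) with 1 at 0, and the 14 formative and primed genes 0.000596% to 0.0531% (bulk 0.0231% to 0.0396%) with none at 0. The upper values of the fibroblast and of the neural and mesodermal genes came from the sum of H3K27me3 experiment 3, made of 2 high-gene cells. That sum held 284 CPM of the collagen gene Col3a1, 274 CPM of Postn, 278 CPM of the endothelial receptor gene Kdr and 304 CPM of the neuronal tubulin gene Tubb3. Col3a1 and Postn were under 1 CPM in all 5 other sums, but other members were above bulk elsewhere. Tubb3 was at 159 CPM in H3K4me3 experiment 6, with at most 129 in bulk. The neural and mesodermal list took 0.0174% of counts in that sum, also above bulk. Pax6, of the same list, was at 72.4 and 52.4 CPM in H3K27me3 experiments 1 and 2, with at most 0.92 in bulk. Dcn, of the fibroblast list, was at 8.93 and 9.96 CPM there, with at most 0.597 in bulk. Over all high-gene cells, 10 or more counts were held by 1 cell for Postn, 3 for Col3a1 and 2 for Kdr. For Pax6 it was 13 cells, for Dcn 17 and for Tubb3 27.

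Genes of the two-cell-like state, which ES cells enter transiently, together took 0.123%, 0.0102% and 0.0418% of counts in the high-gene sums of H3K27me3 experiment 3 and H3K4me3 experiments 5 and 6, above the bulk range of 0.000373% to 0.00328%, and 0.000192%, 0.000195% and 0.000236% in the other 3, below it. In the passing sums the list was above that range in 4 of 6 experiments. Zscan4c, a telomere-associated gene of that state, was at 0.169, 0.35, 223, 1.41, 98.2 and 266 CPM in the same order and at 1.33 to 14.6 CPM in bulk, so 3 sums lay above every bulk library and 2 below. Zscan4d was at 661 CPM in H3K27me3 experiment 3 and 51.0 in H3K4me3 experiment 6 against at most 11.4 in bulk. Of the 42 high-gene cells of H3K4me3 experiment 6, 24 had 10 or more counts of Zscan4c, and the passing sums were at 0.0922, 0, 1.49, 139, 90.7 and 48.7 CPM, so the gene was high in passing cells of H3K27me3 experiment 6 and low in the high-gene cells there. In the test against bulk described below, the log2 fold of Zscan4c was 4.45 (SE 0.821, adjusted p = 1.5e-05). It became -0.0165 with limma on the mean over cells. It became -3.23 with a block by the number of the experiment or bulk replicate, which joined unrelated samples. The Zscan4 genes are near-identical copies of each other, and how reads were divided among them in the single-cell tables is not given in the sources used here.

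The high-gene sums and the passing sums were each tested against the bulk libraries, which the rule did not use, in 1 edgeR quasi-likelihood fit over 12316 genes with Benjamini-Hochberg adjustment. High-gene sums were higher than bulk for 3147 genes (25.6% of genes tested) and lower for 1891 (15.4%), 40.9% in all. Passing sums were higher for 2773 genes (22.5%) and lower for 1882 (15.3%), 37.8% in all. The 2 contrasts share the bulk libraries, so they are given side by side and their overlap is not read. For 297 genes (2.41%) every high-gene sum lay above every bulk library, and for 585 (4.75%) every one lay below; for passing sums these shares were 4.12% and 5.21%. Fitted folds are relative to TMM scaling, whose median log2 factor was 1.26 lower in high-gene sums than in bulk, so a gene at an equal CPM had a fitted log2 fold of about that size. The median log2 fold over all genes was -0.0585, and DESeq2 size factors moved it to 0.5 and the calls to 4723 higher and 1697 lower. Without H3K4me3 experiment 6 the lower calls were 4124, and limma on the mean over cells of log2(CPM + 1) called 1174 higher and 10006 lower, so the split between directions depended on the scale and on that experiment.

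The span of a gene went with the direction. Genes called higher in the high-gene sums covered a median of 65.6 kb from first to last annotated base and 39.9% of them exceeded 100 kb, genes called lower covered 15.7 kb and 4.18%, and all tested genes 24.9 kb and 15.8%. Genes over 100 kb took a median of 42.1% of a high-gene cell's counts in H3K27me3 experiment 1, 33.2% in experiment 2, 31.3% in experiment 3 and 23.2% in experiment 6, 8.59% in H3K4me3 experiment 5 and 10.9% in experiment 6, against 2.90% to 4.59% in the bulk libraries. In passing cells the same medians were 40.7%, 42.8%, 9.50%, 41.8%, 11.4% and 21.1%. Introns were counted only in the single cells, and the part of that in the span difference was not tested. The length class was chosen after the first results were seen.

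Among the ES cell genes, calls went both ways. Of the 21 pluripotency genes tested, 4 were higher (Rex2, Dppa3, Sall4 and Utf1) and 2 lower (Nr0b1 and Esrrb) in high-gene sums, from a log2 fold of -3.40 to 8.40 with a median of -0.02, against 25.6% higher and 15.4% lower over all genes. In passing sums 1 was higher and 0 were lower, where 22.5% and 15.3% of all genes were. By CPM, 4 of the 21 lay below every bulk library in all 6 high-gene sums and 0 above, where 4.75% and 2.41% of all genes did. Rex2, a zinc finger gene, was at 342, 78.4, 271, 0.472, 2.81 and 53.9 CPM with 0 to 2.68 in bulk (SE 0.841, adjusted p = 7.63e-12). It was above every bulk library in 5 of 6 high-gene sums and in every passing sum, at 113, 3.27, 62.6, 91.9, 65.4 and 29 CPM. Dppa3, a maternal factor also active in the germ line, was at 0, 0, 0, 373, 16.8 and 11.1 CPM with 1.98 to 42.5 in bulk, so its log2 fold of 5.11 (SE 1.00, adjusted p = 3.94e-05) rested on H3K27me3 experiment 6, without which it was 0.213. Sall4, a zinc finger factor of ES cells, was at 113, 196, 3.8, 612, 126 and 202 CPM with 200 to 351 in bulk. Its log2 fold of 1.40 was 0.656 and not called without the same experiment. Nr0b1, an orphan receptor of ES cells, was at 0, 0, 1.36, 0.472, 0 and 22.6 CPM with 41.0 to 123 in bulk. Esrrb, another orphan receptor, was at 0.791, 0.35, 0, 4.24, 71.6 and 152 CPM with 187 to 369. Both lay below every bulk library in 6 of 6 sums. Their log2 folds were -3.40 (SE 1.13, adjusted p = 0.0143) and -2.15 (SE 0.847, adjusted p = 0.0385), and without H3K4me3 experiment 6 they were -6.48 and -3.17. Esrrb was no longer called without any 1 of H3K27me3 experiments 2, 3 and 6 (-1.79, -1.88 and -1.86). Nanog had a log2 fold of -0.28 (SE 0.504, adjusted p = 0.678), which turned to 0.92 with DESeq2 size factors. Zfp42 had 0.65 (SE 0.485, adjusted p = 0.281) and Pou5f1 -0.51 (SE 0.846, adjusted p = 0.65), which became 0.06 without H3K27me3 experiment 6. Utf1, a chromatin factor of ES cells, was called higher, at 148, 379, 5.69, 362, 660 and 208 CPM against 163 to 728 in bulk, with a log2 fold of 1.3 (SE 0.514, adjusted p = 0.0388) that was no longer called without H3K4me3 experiment 5 (1.09). Nodal, the TGF-beta family ligand of the formative list, was at 105, 348, 3.8, 56.6, 4.21 and 73.5 CPM against 25.5 to 101, with a log2 fold of 2.00 (SE 0.626, adjusted p = 0.00889) that was 2.65 without H3K27me3 experiment 6. Both turned negative in limma on the mean over cells. Dppa5a, an RNA-binding ES cell gene seen in all 66 cells, was at 125, 682, 297, 455, 1170 and 1480 CPM with 1040 to 2060 in bulk.

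Most ribosomal protein genes were called higher than bulk. All 79 were tested, 61 were called higher (background 25.6%) and none lower, with a median log2 fold of 2.19, and 23 lay above every bulk library in all 6 sums while 3 lay below. In passing sums 55 were higher and 1 lower, with a median of 2.22. Their share of counts, which does not rest on the TMM scale, was 4.64%, 5.03%, 4.33%, 9.69%, 13.8% and 11.2% in the high-gene sums and 5.06% to 9.26% in bulk, so 3 of the 6 sums lay above the bulk range and 3 below. Rpl10a was at 581, 1010, 1190, 2220, 1500 and 1500 CPM with 21.3 to 124 in bulk (log2 fold 5.98, SE 0.403, adjusted p = 2.7e-17), and Rpl37 at 570, 709, 15.2, 2190, 1360 and 1500 with 4.25 to 337 in bulk (log2 fold 4.48, SE 0.507, adjusted p = 2.18e-10). These genes have many processed copies in the genome, the bulk counting left out reads with several alignments, and how the single-cell counting treated them is not given in the sources used here, so their folds are uncertain.

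The glycolysis enzyme Gapdh had the same limit and the same direction. It was at 628, 551, 10.3, 2030, 2530 and 1780 CPM in the high-gene sums and at 0 to 19.1 in bulk (log2 fold 8.29, SE 0.532, adjusted p = 5.32e-18). Its passing sums were at 696, 275, 1570, 967, 1660 and 1280 CPM, all above every bulk library. Ldha, lactate dehydrogenase, was at 88.5, 325, 287, 452, 1090 and 962 CPM against 1320 to 3140, and Aldoa, an aldolase, at 165, 242, 78.9, 186, 199 and 563 CPM against 610 to 1380, below bulk in 6 of 6 sums for both, and neither was called on the TMM scale. Of the 14 glycolysis genes tested, 2 were called higher and 2 lower, with a median log2 fold of -0.65. For these and the next lists the background is again 25.6% higher and 15.4% lower. The respiratory chain genes had 11 higher and 2 lower of 70 and a median of 0.23, and took 0.609% to 2.01% of counts against 1.92% to 2.74% in bulk. The proteasome genes had 5 higher and 1 lower of 36, with a median of 0.26. Of the S phase genes 0 were higher and 1 lower of 16, with a median of -0.45, and of the G2 and M phase genes 0 were higher and 1 lower of 15, with a median of -0.16. By share of counts, all 6 high-gene sums lay below every bulk library for the S phase genes (0.0647% to 0.345% against 0.413% to 0.713%), the G2 and M phase genes (0.0824% to 0.182% against 0.224% to 0.338%) and the proteasome genes (0.211% to 0.76% against 0.79% to 1.06%). Passing sums also lay below every bulk library for the S phase genes (0.0785% to 0.309%) and the G2 and M phase genes (0.0171% to 0.214%). For the proteasome genes they ran from 0.258% to 0.832%, into the bulk range.

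Genes of the Wnt pathway were called in both directions. Of 10 tested, 1 was called higher and 3 lower, with a median log2 fold of -0.33, where 25.6% and 15.4% of all genes were. In passing sums, from cells cultured with the same beads, 3 were higher and 1 lower, where 22.5% and 15.3% of all genes were, with a median of -0.17. Nkd1, a feedback inhibitor, was at 113, 201, 867, 75.0, 112 and 10.4 CPM with 0 to 5.43 in bulk, above it in 6 of 6 sums (log2 fold 7.97, SE 0.863, adjusted p = 6.49e-11, and 8.78 without H3K27me3 experiment 6), and in passing sums it was at 111, 306, 1.4, 126, 2.34 and 37 CPM. Sp5, a transcription factor and direct target, had 2 counts in all high-gene cells together and was at 7.99 to 57.4 CPM in bulk (adjusted p = 0.00022). In passing sums it was at 75.7 CPM in H3K27me3 experiment 2 and not called (adjusted p = 0.21). Cdx1, another target, was at 1.98, 1.75, 0, 0.943, 0 and 0.642 CPM with 7.53 to 144 in bulk, below it in 6 of 6 (log2 fold -3.78, SE 1.07, adjusted p = 0.00386). Myc was lower at -2.99 (SE 1.04, adjusted p = 0.0184), and -4.92 without H3K4me3 experiment 6. Its 6 high-gene sums, at 0 to 8.3 CPM, all lay within the bulk range of 0 to 50.2. In passing sums Myc was called higher, at 2.44 (SE 0.746, adjusted p = 0.00721), as was Lef1, a transcription factor of the pathway, at 4.05 (SE 0.843, adjusted p = 9.73e-05). For each of these 2 genes, 2 of the 6 passing sums lay above every bulk library. Axin2, a general readout of the pathway, was at 9.15, 0, 0, 0.472, 0 and 7.41 CPM against 0 to 65.6 and was not called, and Rnf43 had no count in any high-gene cell against 0 to 2.02 CPM in bulk. Beads were present only in the single-cell experiments, whose other differences from bulk cannot be told apart from them.

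**Figure D5:**
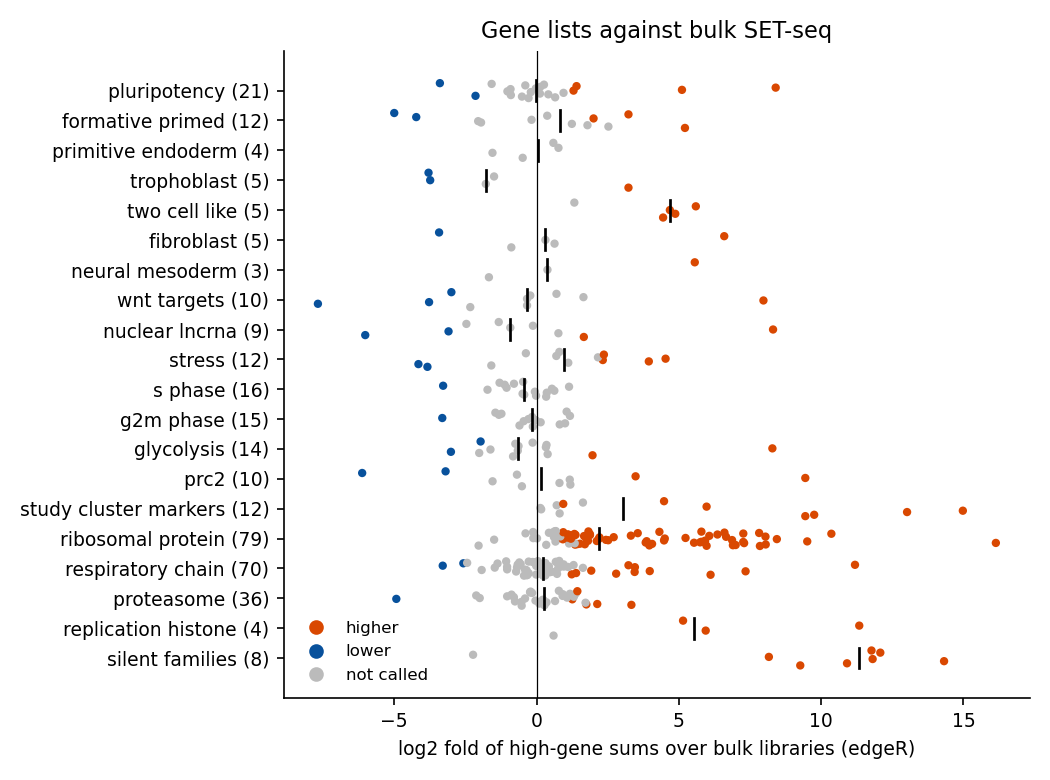
Fitted log2 fold of the high-gene sums over the 20 bulk libraries for each tested member of the gene lists (number in brackets), coloured by call at an adjusted p of 0.05, with black ticks at the list medians. Ribosomal protein genes sit to the right with 61 of 79 called higher, and the pluripotency genes run from -3.40 to 8.40 with 6 of 21 called.

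Polycomb group genes were called in both directions. Jarid2, which recruits and regulates the H3K27 methyltransferase complex PRC2, was above every bulk library in 6 of 6 sums, at 567, 348, 686, 742, 876 and 1290 CPM with 126 to 238 in bulk (log2 fold 3.48, SE 0.373, adjusted p = 5.16e-11). It was also higher than bulk in passing sums (log2 fold 2.95, SE 0.374, adjusted p = 4.52e-09 in the same fit). Aebp2, another accessory subunit, was at 16000, 18400, 8.4, 9740, 0 and 1520 CPM with 0 to 58.2 in bulk (log2 fold 9.44, SE 0.835, adjusted p = 1.91e-13), so 4 sums lay far above bulk and that of H3K4me3 experiment 5 had none. In passing sums Aebp2 was at 15200, 25500, 108, 17700, 71.3 and 6770 CPM, the same high and low experiments. The core subunits Ezh2 (1.36, 76.6, 0, 0.472, 184 and 101 CPM, bulk 67.2 to 253), Eed (165, 62.3, 1.9, 133, 469 and 122, bulk 49.7 to 237) and Suz12 (114, 114, 209, 220, 9.82 and 77.3, bulk 32.1 to 455) were not called. Of the 10 PRC2 genes tested, 2 were higher and 2 lower with a median log2 fold of 0.15, near the shares over all genes of 25.6% and 15.4%. The 2 lower were Phf1, with no count in any high-gene cell, and Phf19, both under 8 CPM in bulk. Jarid2 spans 191 kb and Aebp2 55.8 kb.

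A short list of 12 genes stood here for the study's cluster markers, of which it reported many more. Of these 12, 7 were higher and none lower than bulk, with a median log2 fold of 3.06 and a background of 25.6%. In passing sums 7 were higher, with a median of 4.39. The study picked them from all its 545 passing cells, of which 142 were in the experiments with high-gene cells, so the direction of these genes is not independent evidence. Peak1, a pseudokinase gene of 217 kb, was at 4210, 5600, 3210, 4320, 19700 and 17000 CPM with 0 to 35.1 in bulk (log2 fold 9.76, SE 0.426, adjusted p = 1.91e-24) and had 100 or more counts in 66 of 66 cells. Its passing sums were at 3220, 1550, 10500, 3450, 19800 and 16900 CPM. Cracr2a was at 90.3, 1480, 1.08, 6030, 0 and 2420 CPM with 0 to 3.44 in bulk.

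Genes far outside the bulk range were chosen by a rule: the 10 largest and 10 smallest folds among called genes whose 6 sums all lay on 1 side of all bulk libraries. Among the higher ones, Myo3a, an unconventional myosin of hair cells and photoreceptors (mm9 chr2:22149130-22473772), was at 3470, 1880, 3260, 4230, 3220 and 3300 CPM and had 3 counts in all bulk libraries together. Rbfox1, a neuronal splicing factor (chr16:5884886-7412573), was at 3160, 2200, 207, 9010, 22.5 and 519 CPM with 1 count in bulk, and Fli1, an ETS factor of blood and endothelium (chr9:32229789-32349037), at 15600, 11100, 231, 4020, 11.2 and 314 CPM with 4 counts. Lrmda, at 2680, 3330, 4.34, 689, 87.0 and 44.3 CPM, had 2 counts in bulk. Rbfox1, Fli1 and Lrmda, like Aebp2, were high in H3K27me3 experiments 1, 2 and 6 and lower in the other 3, and Myo3a ran from 1880 to 4230 CPM over the 6. The ribosomal protein gene Rpl26 was at 881, 471, 516, 1020, 2310 and 1770 CPM with 1 bulk count. Gm20765 and Gm1968 had no bulk count and were at least 508-fold and at least 7570-fold higher by the median of the sums over the floor of 3 counts across the bulk group. Mir3084-1, Btbd35f26 and Btbd35f11 also had none, but each symbol stands for copies at several places, so that its annotated stretch covers 35800 kb for Mir3084-1 and 27100 kb for the others and holds 357 and 204 other genes, and their counts are not those of a single gene. Passing sums lay above every bulk library in 6 of 6 experiments for each of these 10 genes.

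The genes far below bulk were short of counts in nearly every high-gene cell. Nxf3, an RNA export factor (chrX:132606638-132619794), had no count in the 6 sums and was at 3.96 CPM or more in every bulk library, at least 258-fold lower than the bulk median by the floor of 3 counts over all high-gene cells. Tpbg (chr9:85735987-85740662), a membrane inhibitor of Wnt signalling, also had none and was at least 147-fold lower. Beside Sp5, Xlr4a and the DNA glycosylase Neil1 had 1 count each, the actin-binding Pfn2 3, Zfp951 5, Chid1 4, Epm2aip1 14 and the nuclear noncoding RNA Neat1 5. In the passing sums Tpbg reached 19.9 CPM in H3K4me3 experiment 5, Neat1 36.2 and Chid1 13.8 in the same experiment, and Zfp951 52.3 in H3K27me3 experiment 1 and 34.7 in experiment 6. Malat1, another nuclear noncoding RNA, lay above the bulk range in 1 sum, within it in 2 and below it in 3, at 296, 95.4, 5.42, 0.472, 5.61 and 113 CPM with 47.8 to 201 in bulk; its call as higher (log2 fold 1.66, SE 0.68, adjusted p = 0.0457) was lost without H3K27me3 experiment 1 (0.285).

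Genes without a count in bulk were also read in high-gene cells. Of 708 genes of the single-cell tables with no count in any bulk library, 551 had a count in some high-gene cell, and the median cell showed 81 of them. They took a median of 1.31% of counts in high-gene cells of H3K4me3 experiment 6 and 2.65% in its passing cells, and 5.09% and 4.77%, 4.37% and 5.87%, 3.96% and 1.05%, 2.81% and 4.70%, and 0.958% and 1.41% in the other experiments. In H3K4me3 experiment 6, those with the highest levels included, beside the symbols with several copies, Gm12191 at 638 CPM, the aldose reductase gene Akr1b3 at 354, the ornithine decarboxylase antizyme gene Oaz1 at 289, Gm27021 at 220 and Gm1968 at 171. In the passing sum of that experiment these 5 genes were at 343, 302, 123, 83.2 and 754 CPM. Bulk counting left out reads with several alignments, and the part of that in their absence from bulk was not tested. Of the olfactory and vomeronasal receptor and similar families, the single-cell tables held only 253 genes, where the bulk tables held 1600. Of those 253, 77 had no count in any high-gene cell. Of the 18109 genes with a bulk count, 16857 had a count in some high-gene cell. The log2 fold of Olfr224 over bulk was 14.3 in high-gene sums and 14.6 in passing sums. Olfr224 had 10 or more counts in 61 of 66 high-gene cells and was at 103, 112, 1.9, 1440, 15.4 and 179 CPM with at most 0.362 in bulk, and Vmn2r32 was at 1370 CPM in H3K27me3 experiment 1 and at 0 to 68.0 elsewhere. Hist1h2ao, a replication histone gene, was at 32.8, 0.901, 0.542, 1.41, 216 and 49.4 CPM with at most 0.248 in bulk. Receptor and histone genes have near-identical copies, so these levels are uncertain.

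The whole profile was compared with bulk as Pearson's r across genes of log2(CPM + 1), each cell thinned to 50000 counts, with the mean of the bulk libraries; r is a description here, since genes are not replicates. Medians in high-gene and passing cells were 0.510 and 0.382 in H3K4me3 experiment 6, 0.501 and 0.385 in H3K4me3 experiment 5, and 0.093 and 0.097, 0.139 and 0.039, 0.131 and 0.272, and 0.210 and 0.074 in H3K27me3 experiments 1, 2, 3 and 6. Single bulk libraries reached 0.717 to 0.879. High-gene cells were therefore more like bulk than passing cells by the median in 4 of 6 experiments, and the H3K4me3 experiments were more like bulk than the H3K27me3 ones in both groups. Thinned high-gene cells still had more genes, the value that chose them, in 6 of 6 experiments. The part of gene number in r was not tested. The 2 high-gene cells of H3K27me3 experiment 3 were far apart, at -0.0162 and 0.278.

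Beside passing cells of the same experiments, few genes differed the same way throughout. Of 5726 genes at a mean of at least 20 CPM, 62 (1.08%) were higher in the high-gene sum in 6 of 6 experiments and 227 (3.96%) lower; this contrast is the one that chose the cells and has no test, and sums of 2 or 3 cells miss many genes by sampling. Kif20a, a mitotic kinesin, was at 87.8, 65.3, 21.1, 229, 7.02 and 31.5 CPM in high-gene sums and at 0.0922, 0.192, 1.49, 0.132, 0.935 and 6.3 in passing sums, though only 12 of 66 high-gene cells had 10 or more counts of it. Against bulk it was higher (log2 fold 1.90, SE 0.625, adjusted p = 0.0129), which was not called without H3K27me3 experiment 6 (1.33). Lncenc1, a noncoding RNA of ES cells, was at 436, 173, 169, 473, 216 and 194 CPM against 0.829, 0.866, 6.31, 89.2, 81.3 and 122, and had a count in 66 of 66 cells. Greb1l, a coactivator of retinoic acid signalling, was at 96.8, 67.3, 211, 99.0, 199 and 88.0 CPM against 4.33, 1.92, 6.13, 44.4, 129 and 31.9, and above every bulk library (highest 4.55 CPM) in 6 of 6 sums. Ocrl, Gnal, Exoc2, 1810037I17Rik, Rnft2, N4bp1 and Nr4a3 made up the rest of the 10 highest, with median log2 ratios from 2.49 to 4.76, and had 10 or more counts in 4 to 32 of 66 high-gene cells.

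The 10 genes lowest beside passing cells were Dhx38, a splicing helicase, Snx27, a sorting nexin, Cpsf2, of the mRNA cleavage complex, Glul, glutamine synthetase, Ech1, of fatty acid oxidation, Ift46, Colgalt1, Gng12, Larp7 and Txndc5, with median log2 ratios from -5.54 to -3.97. Ech1 was at 0.734, 0.05, 0.271, 2.83, 43.5 and 68.1 CPM against 55.8, 117, 96.8, 162, 90.4 and 171 in passing sums and 111 to 217 in bulk, below which all 6 sums lay (log2 fold -2.35, SE 0.776, adjusted p = 0.0134, and -3.14 without H3K4me3 experiment 6). Txndc5, a disulfide isomerase, was at 1.24, 0, 0, 2.36, 4.21 and 39.6 CPM against 1.84, 250, 54.4, 85.4, 48.4 and 110. Apart from Gng12, these genes were highest in H3K4me3 experiment 6, whose sum held 42 cells, and near 0 in most of the sums of 2 to 9 cells. Ech1 had 10 or more counts in 19 of 66 high-gene cells, 17 of them from that experiment.

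Finally, the position of a cell at the bead was compared among high-gene cells. They were 30 proximal and 36 distal cells, 21 and 21 of them in H3K4me3 experiment 6, 4 and 5 in H3K27me3 experiment 1 and 2 and 6 in H3K27me3 experiment 2, the 3 experiments with at least 2 of each. Proximal cells were in odd and distal cells in even plate columns throughout, so position and column index cannot be told apart. Median gene numbers of proximal and distal cells were 6271 and 6522, 5175.5 and 5654, and 5420.5 and 6045. Of 7059 genes tested with the experiment as a block, edgeR called 0 (background 0%) and 108 had an unadjusted p below 0.05, where DESeq2 called 250 higher and 380 lower. Among the smallest p-values were those of Fam124a, Ccnjl, Rtl4 and Coch, each with an adjusted p of 0.965. Coch, an extracellular matrix gene, was at 1.6, 2.37 and 16 CPM in proximal sums and 0, 0 and 0.506 in distal sums, and Fam124a at 0, 0 and 0.579 and at 1.39, 1.27 and 23.2. The fit had 2 residual degrees of freedom, so 0 calls do not show that proximal and distal cells were alike.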

How the data were processed

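Expression libraries of scSET-seq and bulk SET-seq were analysed from the deposited count tables; the chromatin libraries were not used here. Per the file headers, the authors counted bulk reads per gene on exons with featureCounts 2.0.0, reads with several alignments left out. The single-cell counts were deposited as 2 tables, made by the authors with zUMIs from reads within exons or introns; no molecular identifiers were used. The submitters' processing notes name Trim Galore 0.6.4, STAR 2.5.4b, Seurat 3.2.1 and mm9. Positions at the bead came from the study's list of cells. Depth was 74788 to 4523097 counts in a high-gene cell and 235040 to 9023045 in a bulk library.

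Counts were summed over the high-gene and the passing cells of each experiment and joined with bulk by symbol. edgeR 4.0.16 (R 4.3.3; glmQLFit, TMM, filterByExpr) tested sums against bulk without a block, and proximal against distal with the experiment as a block, at an adjusted p of 0.05. DESeq2 1.42.0 and limma 3.58.1 were alternatives; other values used Python 3.11.15, numpy 2.4.6, pandas 2.3.3 and scipy 1.17.1. CPM were log2-transformed with a pseudocount of 1. The members, lists and plate tests were chosen with earlier results of these data known. Named genes were the given markers, up to 4 members of each list by level plus all of the Wnt, PRC2 and cluster marker lists, the 10 highest and 10 lowest against bulk and against passing cells, the 5 smallest p by position, and the 10 highest genes without a bulk count in the largest experiment; a few of each are printed, and some are not reported here. Both tests were first tested on simulated counts with known changes. The position test recovered none of these changes, and the test against bulk missed most of the smaller ones. A gene not called is therefore not shown to be unchanged. Alternatives covered scaling, filtering, bulk subsets, cells per sum, each experiment left out, Rn45s left out and a block.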

Additional observations from a re-analysis of the deposited data

Results flagged for a closer look

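There were 3 values that stood apart from the other experiments when each experiment's value was set against the range of its group, of 44 groups examined, where chance flags about 1 in 20. The median number of genes with 10 or more counts was lowest in the high-gene cells of H3K27me3 experiment 6, at 1457, with 2116 to 2424.5 in the other 5. Myo3a was lowest in H3K27me3 experiment 2, at 1880 CPM with 3220 to 4230 CPM in the other 5. Epm2aip1 was highest in H3K4me3 experiment 6, at 0.691 CPM with 0 in the other 5 sums.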

How the results depend on the processing

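The row A difference stayed positive with the smallest permutation p in each alternative, from 0.461 with only passing cells to 1.35 with total counts per cell in place of genes, and the column difference stayed positive and uncalled (0.106 to 0.532). The thinned gene number, the likeness to bulk and the shares of counts on gene classes kept their sign and moved by less than 1 SD between experiments under the alternatives run. The counts against bulk did not. For high-gene sums, higher calls were 4723 with DESeq2 size factors, 5645 with no filter, 1978 with the 8 bulk libraries without an antibody and 1174 with limma on the mean over cells; lower calls were 910 with the 12 libraries with an antibody, 311 with the 8 without, 4124 without H3K4me3 experiment 6 and 10006 with limma. For passing sums, higher calls were 5258 with no filter, 1831 with the 8 libraries and 1102 with limma; lower calls were 607 with the 8 libraries, 3265 with at least 3 cells per sum, 2963 without H3K4me3 experiment 5 and 10268 with limma. Leaving out 1 experiment gave 3090 to 3745 higher and 1538 to 4124 lower in high-gene sums, and 2999 to 3528 and 1731 to 2963 in passing sums. In the position test, which called 0 and 0 genes without any 1 experiment, DESeq2 called 250 higher and 380 lower. The cause of these moves was not tested.

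Experiments and bulk libraries share numbers only in name: deviations of same-numbered high-gene sums and bulk libraries correlated at -0.0498 to 0.0518, and those of high-gene and passing sums of 1 experiment at 0.0155 to 0.427, with 5 of 6 high-gene sums closest to their own experiment. A block by that number joined experiments of different marks, and experiments with unrelated bulk libraries, so its values are hard to read. With it, high-gene sums had 2250 higher and 5290 lower and passing sums 2405 higher and 5230 lower. In the same fit Zscan4c had a log2 fold of -3.23 and Dppa3 of -7.76. The position test with no replicate block called 0 genes.

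Single genes changed sign as follows. Nanog was at 0.92 with DESeq2 size factors, 0.91 with DESeq2, 0.39 with the 8 libraries without an antibody, 0.16 with at least 3 cells per sum, 0.0647 without H3K27me3 experiment 2 and 0.03 with Rn45s left out. Pou5f1 was at 0.0636 without H3K27me3 experiment 6. With limma on the mean over cells, Zfp42 was at -3.52, Utf1 at -2.77, Nodal at -1.48, Malat1 at -3.50, Kif20a at -3.75, Dppa3 at -1.35, Sall4 at -3.09 and Zscan4c at -0.0165. A cell without a count of a gene enters that mean at 0, where a sum of counts can rest on 1 cell.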
